A study of Mus musculus with 5 samples.

Results

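The 10 genes described here are a standard set of T cell identity genes: Cd3d, Cd3e, Cd3g, Cd2, Cd5, Lck, Cd28, Cd4, Cd8a and Foxp3. They were read from single-colour arrays of whole mouse colon, where 15 of 56605 probes belonged to them and all 10 genes were among the 32917 features tested. Each of the 5 arrays held the RNA of a colon from a wild-type C57BL/B6 mouse. The study gives the injected mice as young adults, and the labels give no age for the Control mice. The 2 Control mice carry no treatment in the labels. The 3 NT-3N mice had received NT-3N by intravenous injection and their colon was taken 3 hr later; NT-3N is a modified human IL-11 that activates the receptor of this cytokine. The sources state the dose in different units, so no dose is given, and without a labelled vehicle injection the agonist and the injection cannot be told apart. The aim of the experiment was to find genes that IL-11 regulates in the colon.

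T cells recognise antigen through the T cell receptor, whose signal is carried into the cell by the CD3 chains. The kinase LCK, which rides on the coreceptors CD4 and CD8, phosphorylates the CD3 chains, and CD28 and CD2 add costimulation while CD5 restrains the signal. In the colon, T cells lie in the lamina propria, between epithelial cells and in lymphoid follicles, and FOXP3 marks the regulatory T cells that are abundant there. In an RNA sample of whole colon, fewer T cells and less RNA per T cell cannot be told apart.

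The study asked about signalling by IL-11, which passes through gp130 and STAT3, so the promoters of the member genes were searched for the palindromic STAT motif TTCNNNGAA, which reads the same on both strands. RefSeq promoter windows of 300 bases in build GRCm38.p6, from 250 bases before to 50 bases after a gene start, were at hand for 7 of the 10 genes, as 9 windows; Cd2, Cd28 and Cd4 had none in the table. The motif was in 2 of the 9 windows, against 8.3% of all 32851 windows. These stretches are shown because they are the only member windows with the letters of the motif, together with the stretch of Socs3, a STAT3 feedback inhibitor that rose in these arrays from a mean log2 signal of 10.37 in Control to 13.08 in NT-3N, a log2 difference of 2.71 (standard error 0.18, limma adjusted p = 0.0087). Capitals mark the motif.
Cd3d, chr9:44981579-44981607, plus strand: tcccttacacTTCCTAGAAttctgaacaa
Foxp3, chrX:7580334-7580362, plus strand, before the later of its 2 starts: gagctctgttTTCCAAGAAcgggcattag
Socs3, chr11:117969502-117969530, minus strand: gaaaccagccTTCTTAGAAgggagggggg
The motif began 197 bases before the start of Cd3d, 139 before that of Foxp3 and 154 before that of Socs3. A match is a description of the letters, and binding was not measured. Cd3g, Cd3d and Cd3e lie next to each other in that order on chromosome 9.

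No T cell identity gene passed the test of NT-3N against Control. In limma 0 of the 10 had an adjusted p under 0.05, where 0.143% of all features did, and 0 of the 10 had an unadjusted p under 0.05, where 9.62% did. The local-pooled-error test, the test named in the methods of the study, also called 0 of the 10 at an adjusted p under 0.05 and 0 at an unadjusted p under 0.05. Of all 32917 features it put 348 under the adjusted and 1256 under the unadjusted threshold. The arrays of the groups overlapped for all 10 genes, while 28.4% of all features had groups without overlap. The log2 fold changes, NT-3N minus Control, ran from -0.15 for Cd4 to 0.36 for Cd8a, with 8 above 0 and 2 below, and a median of 0.11 beside a median of -0.019 over all features. A missed threshold does not show equal levels, so the 95% intervals of limma are given for each gene. For 9 of the 10 genes the interval lay within a 2-fold change in either direction, as it did for 79.6% of all features, and Cd8a was the exception. For Cd3e, Cd3g, Lck and Cd4 it lay within a 1.5-fold change, as for 49.0% of all features.

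**Figure D1:**
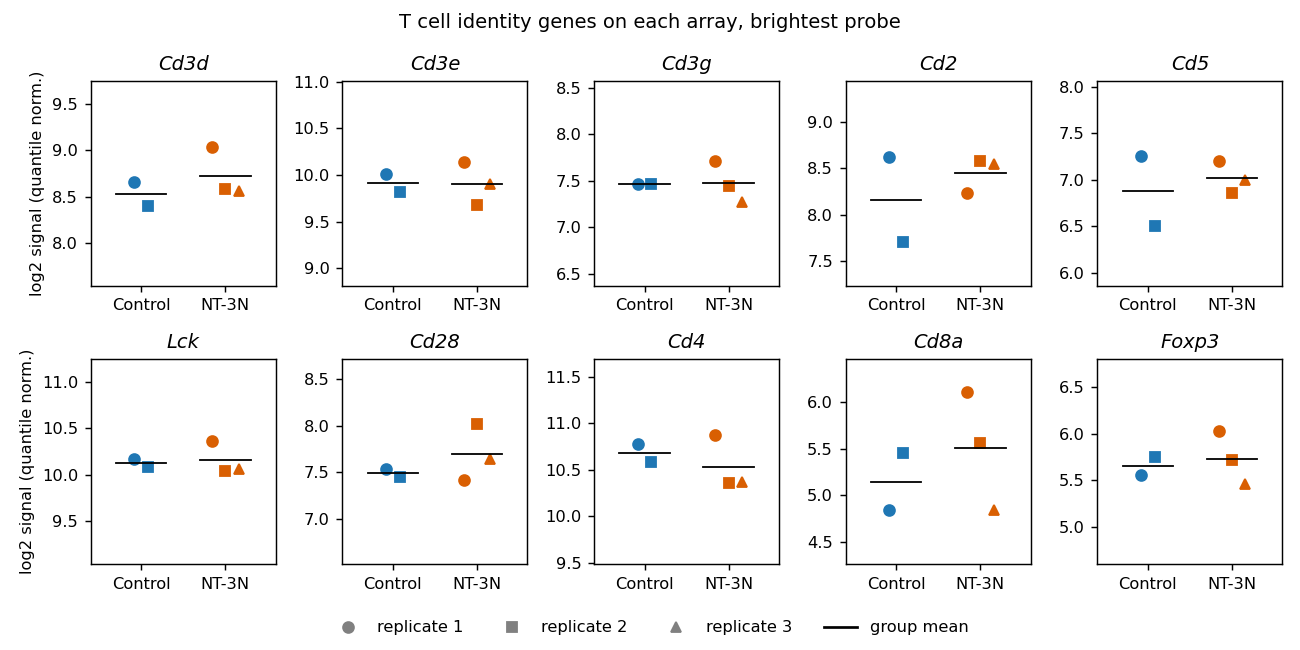
Log2 quantile-normalized signal (y axis) of the brightest probe of each T cell identity gene on the 2 Control and 3 NT-3N arrays, with symbols for the replicates and bars for the group means; every panel spans the same height, but levels are not comparable between probes. The points of the groups overlap in all 10 panels, and NT-3N replicate 1 is the highest array for 7 genes.

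The CD3 chains form the signalling part of the T cell receptor. On its brightest probe Cd3d had a log2 signal of 8.65 and 8.40 in Control replicates 1 and 2, and of 9.03, 8.58 and 8.56 in NT-3N replicates 1 to 3. NT-3N replicate 1 lay above both controls and the other NT-3N arrays lay between them. The log2 fold change was 0.20 with a 95% interval from -0.24 to 0.64 (limma adjusted p = 0.76), and 0.044 without NT-3N replicate 1. Cd3e stood at 10.01 and 9.81 in Control and at 10.14, 9.68 and 9.90 in NT-3N. Its groups overlapped on both sides, and its log2 fold change was -0.0051, between -0.39 and 0.38 (adjusted p = 0.99 in limma). This change was smaller in size than that of all but 1.94% of features. Cd3g stood at 7.46 on both Control arrays and at 7.72, 7.44 and 7.28 in NT-3N, so the controls lay inside the range of the treated mice. Its log2 fold change was 0.016, between -0.38 and 0.41 (limma adjusted p = 0.98). All 3 chains were highest in NT-3N replicate 1.

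LCK is the kinase that starts signalling at the receptor. The brighter Lck probe read 10.17 and 10.08 in Control and 10.36, 10.04 and 10.06 in NT-3N. The log2 fold change of 0.031 had the narrowest interval of the 10 genes, from -0.28 to 0.35, or between 0.82-fold and 1.27-fold (limma adjusted p = 0.95). As for the CD3 chains, NT-3N replicate 1 was the highest array. The other NT-3N arrays of Lck lay just below the controls.

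The coreceptors CD4 and CD8 bind MHC class II and class I and divide T cells into helper and cytotoxic lineages; in mice Cd4 is also carried by lymphoid tissue inducer cells and Cd8a by some dendritic cells. On its brighter probe Cd4 stood at 10.77 and 10.58 in Control and at 10.87, 10.35 and 10.36 in NT-3N. NT-3N replicate 1 was above both controls and the other NT-3N arrays were below both. The log2 fold change was -0.15, between -0.58 and 0.29 (limma adjusted p = 0.82). Without NT-3N replicate 1 it was -0.32, with an unadjusted p of 0.024 in limma and an adjusted p of 0.25. In that fit 5142 of 32580 features had an unadjusted p under 0.05, so nothing is read from this p. Cd8a was the most variable member, at 4.84 and 5.45 in Control and at 6.11, 5.56 and 4.85 in NT-3N. Its lowest values came from an array of each group, Control replicate 1 and NT-3N replicate 3. The log2 fold change was 0.36 with an interval from -0.62 to 1.34, that is from 0.65-fold to 2.53-fold (limma adjusted p = 0.80). It was 0.056 without NT-3N replicate 1 and 0.69 without NT-3N replicate 3. The pooled SD of Cd8a within the groups was 0.57, above that of 95% of features of like signal. For these dim values an increase of 2-fold could not be told from none at this number of arrays. Cd8b1, which encodes the partner chain of CD8 alpha, had a log2 fold change of 0.10 (limma adjusted p = 0.92).

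The surface molecules CD2, CD5 and CD28 tune the response, and Cd2 and Cd5 are also carried by B cells or a subset of them. Cd2 stood at 8.62 and 7.71 in Control and at 8.23, 8.58 and 8.55 in NT-3N. Control replicate 1 was its highest array and Control replicate 2 its lowest, so the controls differed by more than the groups did. The log2 fold change was 0.29, between -0.37 and 0.95 (limma adjusted p = 0.77). It was 0.75 without Control replicate 1, where limma gave an unadjusted p of 0.011 (adjusted p = 0.48), and -0.16 without Control replicate 2. Cd5 showed the same order of controls, with 7.25 and 6.50 in Control against 7.20, 6.85 and 6.99 in NT-3N. The log2 fold change was 0.14 (interval -0.46 to 0.74, limma adjusted p = 0.88), and -0.23 without Control replicate 2. Cd28 stood at 7.54 and 7.45 in Control and at 7.42, 8.02 and 7.65 in NT-3N. It was the only member with its highest value in NT-3N replicate 2, and its log2 fold change was 0.20, between -0.28 and 0.67 (limma adjusted p = 0.78), and 0.037 without that array.

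FOXP3 is the transcription factor that defines regulatory T cells. Foxp3 stood at 5.55 and 5.75 in Control and at 6.02, 5.71 and 5.45 in NT-3N, with NT-3N arrays both above and below the controls. Its log2 fold change was 0.078, between -0.48 and 0.63 (limma adjusted p = 0.93).

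Of the 10 genes 5 were represented by a second, dimmer probe, and probes of a gene did not always move the same way. Over all 15 probes, tested together with every probe of the array, 0 had an adjusted p under 0.05 in limma, where 0.168% of 41590 probes did, and 0 an unadjusted p under 0.05, where 9.54% did. The dimmer Cd3d probe moved with the brighter one, with a log2 fold change of 0.12. The dimmer Cd3e probe gave -0.18, against -0.0051 on the brighter one. The dimmer Cd4 probe gave 0.37 against -0.15 on the brighter probe, so the sign of the Cd4 change rests on the probe. The dimmer Lck probe gave -0.21, and was the only member probe without overlap between the groups, where 28.2% of all probes had none (unadjusted p = 0.27 in limma, adjusted p = 0.74). The dimmer Cd8a probe was well above background on both Control arrays and on no NT-3N array, at log2 signals of 3.88 and 3.78 against 3.85, 3.03 and 2.91. NT-3N replicate 1 lay between the controls, so the groups overlapped. Each dimmer NT-3N value was then lifted to the least signal that any well measured probe had on its array. The Control mean was 1.06-fold higher than the mean so lifted, with no allowance for spread. The fitted log2 fold change was -0.57 (limma adjusted p = 0.71). The probe was kept in the fit only through its Control arrays, so its p supports nothing. For the other 14 member probes the signal was well above background on all 5 arrays.

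**Figure D2:**
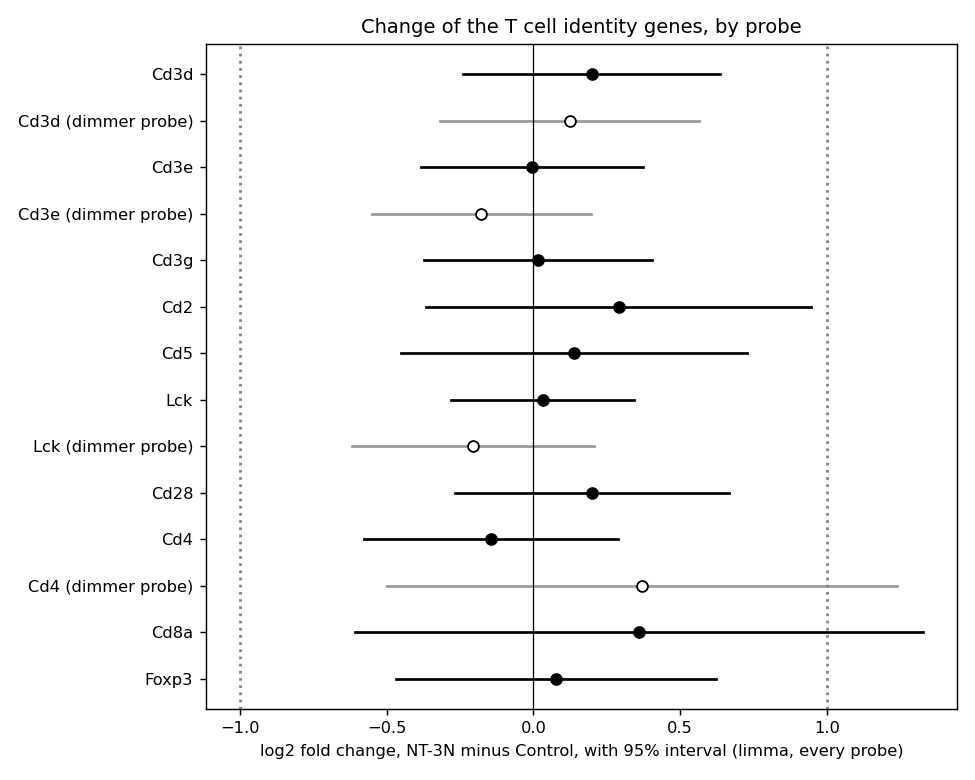
Log2 fold change (x axis, NT-3N minus Control) of the 14 member probes measured in both groups, with 95% intervals from limma fitted to every probe; filled points are the brightest probe of a gene, open points the dimmer ones, and dotted lines mark a 2-fold change. Every interval includes 0, and the filled points lie between -0.15 and 0.36.

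The order of the arrays was partly shared among the members. NT-3N replicate 1 was the highest array for 7 of the 10 genes, where it was so for 23.7% of all features, and these were Cd3d, Cd3e, Cd3g, Lck, Cd4, Cd8a and Foxp3. Of the 52 companion T cell genes described below it was the highest array for 11, or 21.2%, so the other T cell genes did not share this. Cd2 and Cd5 were highest in Control replicate 1. Averaged over the 10 genes, the log2 signal relative to each gene's own mean was 0.014 and -0.15 in Control and 0.24, 0.0092 and -0.11 in NT-3N. NT-3N replicate 1 was the highest of these and Control replicate 2 the lowest. Without NT-3N replicate 1 the median log2 fold change of the members was -0.012. On that array all 6 tested plasma cell markers and 6 of 7 smooth muscle markers had their lowest values, where 25.6% of all features did. The plasma cell markers moved together, and all 6 were highest in NT-3N replicate 2. The part of these tissues in the T cell values was not tested.

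The 5 named genes whose profile lay nearest to the mean profile of the members, out of 16613 genes well above background on all arrays and outside the lists, were Chfr, Son, Xiap, Ggnbp2os and Sars2. Their root mean square distance to it over the 5 arrays was between 0.019 and 0.028 on the log2 scale. Lck, the nearest member, lay at 0.067, and 189 of these genes were nearer than Lck. The mean profile itself ran only from -0.15 to 0.24, so genes that vary little lie near it. Nearness here does not mark a gene of T cells. Cd8a and Cd2 lay farthest, at 0.40 and 0.34.

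Companion genes of T cells, chosen with earlier results of these data known, were taken from 4 lists with 58 genes in all, of which 52 were tested. None was called in limma at an adjusted p under 0.05; at an unadjusted p under 0.05 there were 2 higher and 1 lower, where 4.95% and 4.67% of all features were higher and lower. Of the 2 higher, Cd160 passed the filter on dim probes only through NT-3N arrays, so nothing is read from this count. Cd8b1, Cd247, Zap70, Ccr7, Gzma and Ccl5 are named for their role, after their values were seen. The median log2 fold change of the 52 was 0.094, with 28 above 0 and 24 below.

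Among genes of T cell receptor signalling, 14 of 16 were tested, with 7 above 0, 7 below and a median log2 fold change of 0.016. Cd247, which encodes the zeta chain of the receptor complex, had a log2 fold change of -0.22 and Zap70, the kinase that docks on it, 0.086, with limma adjusted p of 0.75 and 0.87. Of T cell surface receptors 14 of 16 were tested and 0 passed either threshold in limma, with a median of 0.11. Ccr7, the homing receptor of naive and central memory T cells, stood at 8.82 and 6.74 in Control and at 8.64, 8.50 and 8.80 in NT-3N, so that only Control replicate 2 was apart. The 12 transcription factors had a median of 0.015.

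Of effector and tissue residence genes 12 of 14 were tested, with a median log2 fold change of 0.090. Gzma, which encodes granzyme A, had a log2 fold change of 0.20 (limma adjusted p = 0.86), and Ccl5, a chemokine of cytotoxic and memory T cells, 0.18 (adjusted p = 0.81). Cd160, a receptor of intraepithelial T cells and NK cells, was well above background on 2 of 3 NT-3N arrays and on neither Control array. Its mean log2 signal was 4.22 over the 3 NT-3N arrays and 3.13 in Control (limma adjusted p = 0.48). Not every NT-3N array measured it above background, so no least fold is given. Cd160 passed the filter on dim probes only through its NT-3N arrays, so its p supports nothing. Ifng and Il17a, the signature cytokines of Th1 and Th17 cells, did not pass the filter on dim probes. Of 9 NK and innate lymphoid markers 6 were tested, and their median was 0.0043.

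**Figure D3:**
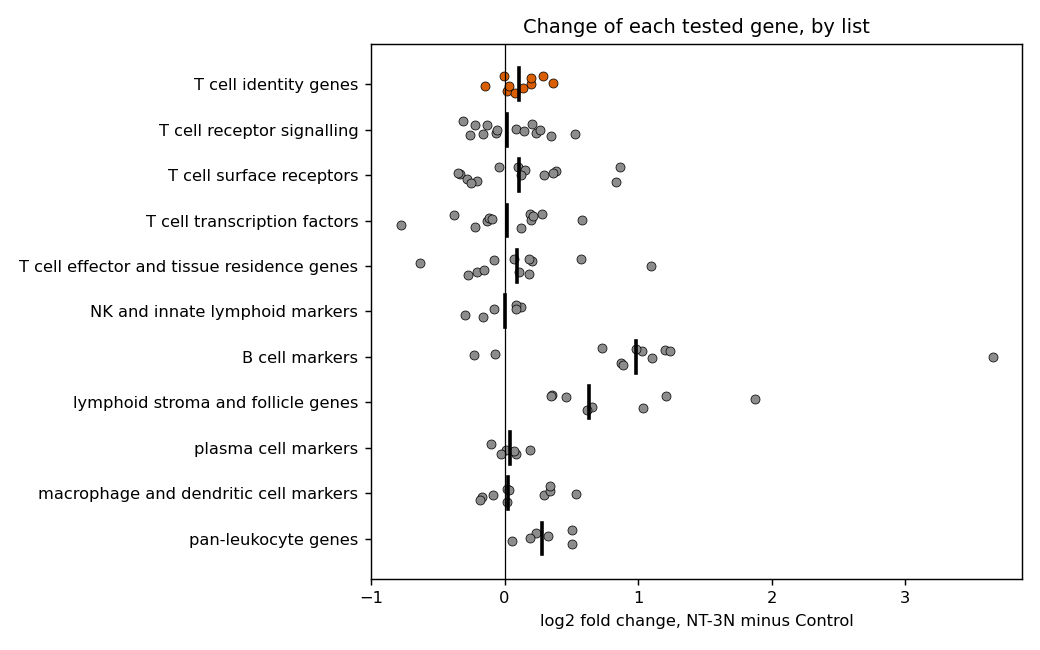
Log2 fold change (x axis, NT-3N minus Control) of each tested gene of the T cell identity set (coloured) and of 10 companion lists of lymphoid and other leukocyte genes, with a bar at each median; Cd160, below background in Control, stands at its fitted value. The T cell lists have medians between 0.015 and 0.11, and B cell markers and lymphoid stroma and follicle genes have medians of 0.98 and 0.63.

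Lymphoid follicles hold T cells beside B cells, and genes of B cells and follicles set Control replicate 2 apart. Of 11 B cell markers 8 had their lowest value there. The log2 of their summed signal, in which the brightest probes weigh most, was 12.74 and 10.87 in Control. In NT-3N it lay between 12.49 and 12.81. All 8 lymphoid stroma and follicle genes and all 6 pan-leukocyte genes were lowest there too. For the members the log2 of the summed signal was 12.38 and 12.17 in Control and between 12.17 and 12.50 in NT-3N. Control replicate 2 minus Control replicate 1 had a median of -2.0 over the B cell markers, -1.37 over the follicle genes, -0.50 over the T cell surface receptors and -0.14 over the 10 members, against -0.012 over all features. Among the members it was -0.91 for Cd2 and -0.75 for Cd5, between -0.26 and 0.0031 for Cd3d, Cd3e, Cd3g, Lck, Cd28 and Cd4, 0.20 for Foxp3 and 0.61 for Cd8a. Of the 52 companion T cell genes 25 were lowest in Control replicate 2, where 19.2% of all features were. The part of B cells and follicles in the values of Cd2 and Cd5 was not tested.

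Of the 11 B cell markers 9 had a log2 fold change above 0 and 0 were called in limma. At an unadjusted p under 0.05 there was 1 higher, where 4.95% of all features were. This was Ms4a1. Ms4a1, which encodes the B cell antigen CD20, had a log2 fold change of 3.65 and a limma adjusted p of 0.059, with both controls low at 4.95 and 6.53. Its adjusted p was under 0.05 in 6 of the 14 alternatives on 5 arrays. Ccl19, a ligand of CCR7 made by stroma of T cell zones, had 1.87 with a limma adjusted p of 0.48. It stood at 7.96 and 5.69 in Control and at 9.24, 7.88 and 8.98 in NT-3N, so its groups overlapped. Mrc1, a macrophage receptor, had 0.53 (limma adjusted p = 0.32) and Cd53, a leukocyte tetraspanin, 0.50 (adjusted p = 0.47). Ccl19, Mrc1 and Cd53 are named because their unadjusted p in limma was under 0.05. They were 1 of 8, 1 of 10 and 1 of 6 tested genes of their lists, where 4.95% of all features were higher at that threshold.

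**Figure D4:**
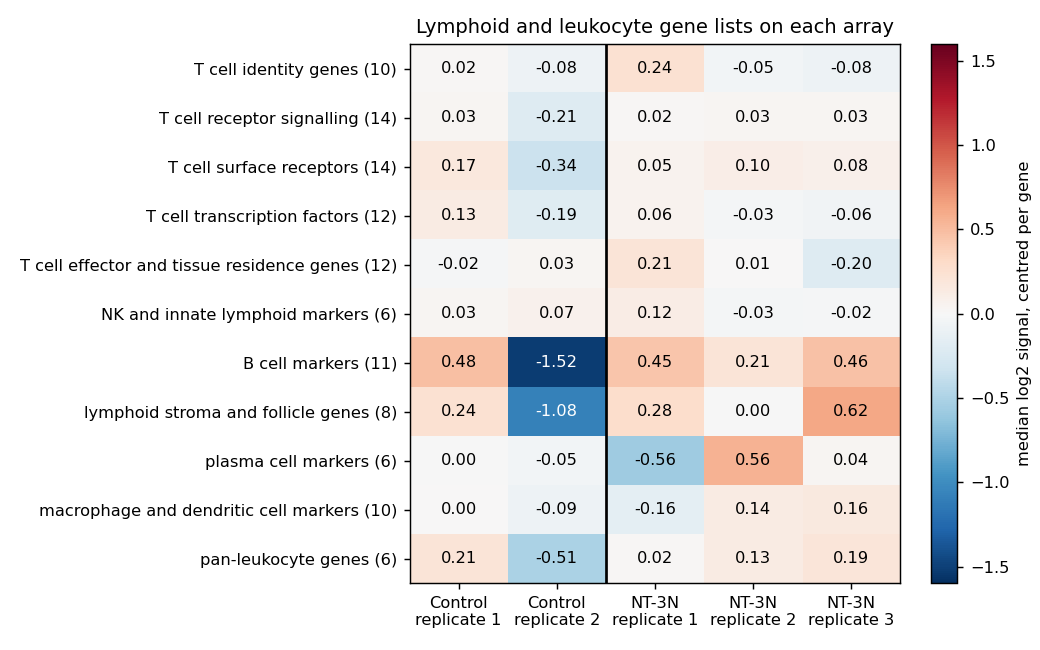
Median log2 signal of each list on each array, with every gene centred on its own mean over the 5 arrays; rows are lists with the number of genes tested, columns are arrays, and a line parts Control from NT-3N. Control replicate 2 lies at -1.52 for B cell markers and at -0.080 for the T cell identity genes, whose highest value is 0.24 in NT-3N replicate 1.

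Across the whole array, 47 of 32917 features had an adjusted p under 0.05 in limma, so the fit called changes elsewhere on the same arrays. The share of probes flagged well above background ran from 70.6% to 72.9% over the arrays, with 0 saturated spots. All 8 epithelial and all 7 smooth muscle markers of the colon wall were well above background on all 5 arrays. Smooth muscle markers were lower in NT-3N for 7 of 7 genes and 0 were called in limma. At an unadjusted p under 0.05 there were 3 lower, where 4.67% of all features were. These 3 were Lmod1, Myh11 and Tagln, with log2 fold changes of -0.84, -0.22 and -0.25. NT-3N replicate 1 was the lowest array for 6 of the 7 genes, where it was so for 25.6% of all features.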

How the data were processed

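Colon RNA of 2 Control and 3 NT-3N mice was hybridised to single-colour mouse arrays, all on 1 slide in 1 scan. The authors deposited scanner output of Agilent Feature Extraction 11.0.1.1 per array, with spot intensity after background subtraction and flags, another kind of value, for outliers and for signal well above background. They also deposited a table of log2 values, quantile normalized by the authors, used as an alternative. Here, outlier spots were left out, spots of a probe averaged, and log2 signals quantile normalized. Probes were named by accession through the RefSeq table of GRCm38.p6, with a symbol for 32994 of 56605. The brightest probe stood for a gene, and a probe had to be well above background on at least 2 arrays. limma 3.58.1 in R 4.3.3 was fitted with an intensity trend to all 32917 features, with Benjamini-Hochberg adjustment. The study's methods name the local-pooled-error test, run as an alternative. The normexp alternative used spot medians. The labels number the replicates, and each sample was taken as a mouse of its own. With the same number, samples deviated together with correlations of 0.13 and 0.036 in 2 pairs. The deviations of the 2 Control arrays mirror each other, so these values cannot decide whether samples were paired. The labels name no pairs, so none were set in the main fit, and a replicate block was run as an alternative. All members were named on every probe, and from each companion list up to 4 genes with the lowest unadjusted p under 0.05. The members and lists were chosen with earlier results of these data known. The scripts were tested on simulated data. Array number limits the precision. Some genes of the companion lists are not reported here.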

Additional observations from a re-analysis of the deposited data

How the results depend on the processing

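In limma and in the local-pooled-error test 0 of the 10 members were called in all 14 alternatives on 5 arrays and in all 5 fits without an array. With the replicate block 0 were called, the lowest adjusted p in limma being 0.68 for Cd3d, and the block called 0 of all features, with 2488 at an unadjusted p under 0.05; no call of a member or list changed with it. Over all features the calls ran from 0 to 348, the latter with the local-pooled-error test, against 47. Signs near 0 turned for Cd3e with 75th percentile scaling (0.0084), median scaling (0.031) and normexp (0.024), for Cd3g with array weights (-0.043) and the local-pooled-error test (-0.019), and for Lck with the same (-0.037 and -0.061). With the mean of the probes Lck gave -0.087, Cd4 0.11 and Cd8a -0.10. With the lowest p of every probe, Lck gave -0.21, Cd4 0.37 and Cd8a a fitted -0.57 from the probe that no NT-3N array measured above background. Leaving out an NT-3N array moved the number of members at an unadjusted p under 0.05 in limma between 0 and 1. The 1 was Cd4, lower without NT-3N replicate 1, where 5142 of 32580 features were under 0.05 in either direction. Leaving out an array moved the members' median log2 fold change between -0.012 and 0.18. It moved Cd3d between 0.044 and 0.33, Cd28 between 0.037 and 0.34, Cd4 between -0.32 and -0.048, Cd8a between 0.056 and 0.69, Cd3e between -0.12 and 0.11, Cd3g between -0.10 and 0.12, Cd2 between -0.16 and 0.75, Cd5 between -0.23 and 0.51, Lck between -0.073 and 0.090 and Foxp3 between -0.068 and 0.22. Of B cell markers 1, Ms4a1, was called with median scaling, normexp, the filter on all arrays, array weights, symbols only and the local-pooled-error test, and between 0 and 4 without an array (4 without Control replicate 1, 1 without Control replicate 2). The local-pooled-error test called 1 T cell transcription factor, as array weights did, 2 follicle genes, Ccl19 and Glycam1, and 1 fat marker, Cidec. The causes were not tested. With 2 and 3 arrays the intervals are wide, most of all for the dim Cd8a.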
